A study of Caenorhabditis elegans with 12 samples.

Results

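The transcripts of 10 Caenorhabditis elegans genes of the endoplasmic reticulum (ER) were followed in whole day 1 adults of 4 genotypes. The genes were chosen by name and matched to the deposited counts through their gene IDs. They code for lectin chaperones (crt-1, cnx-1), other chaperones and a co-chaperone (enpl-1, dnj-7), protein disulfide isomerases (pdi-1, pdi-2, pdi-3, pdi-6) and the stress sensor ire-1 with its target xbp-1. They are 10 of the 46904 gene IDs in the deposited files, and all 10 were among the 15090 genes that passed the filter on low counts and were tested. The mRNA of each genotype was sequenced in 3 libraries. The groups were the double mutant carrying pfd-6(gk493446) and daf-2(e1370) (strain IJ485), daf-2(e1370) alone (CF1041), pfd-6(gk493446) alone (IJ462) and N2, the wild type. daf-2 codes for the insulin/IGF-1 receptor, and e1370 lowers its function. pfd-6 codes for a subunit of prefoldin, a cytosolic co-chaperone of actin and tubulin. All animals were grown on bacteria of the control RNA interference strain to the L4 larval stage and then kept on plates with FUdR, which blocks progeny production. The growth protocol names both control and pfd-6 RNA interference plates for that second stage, the series' design text speaks of hsf-1 RNA interference, and the labels do not say on which of these plates the animals of a library were kept. Effects of such a treatment and of the genotype cannot be told apart here.

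Proteins that enter the ER are folded by lumenal chaperones, bound as glycoproteins by the lectins calreticulin and calnexin, and given their disulfide bonds by protein disulfide isomerases. When unfolded proteins build up, the membrane kinase and ribonuclease IRE-1 removes an intron from the xbp-1 mRNA, and the XBP-1 transcription factor made from the spliced mRNA raises the expression of chaperone genes. This is the main branch of the unfolded protein response in C. elegans. The deposited values are sums per gene, so spliced and unspliced xbp-1 are not separated and the splicing step itself was not measured.

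Whole-library facts that bear on these genes come first. Total expected counts ran from 19394046 to 41009125 per library, and the lowest count of any of the 10 genes in any library was 510, for dnj-7. Levels below are in CPM, counts scaled to the library's size after TMM normalization (a trimmed mean of ratios between libraries). The pfd-6 transcript was set beside the mutant labels. It stood at 16.4, 14.4 and 16.9 CPM in the double mutant and 158, 77.6 and 66.4 CPM in daf-2. In pfd-6 it stood at 21.3, 11.4 and 9 CPM, and in N2 at 143, 86.9 and 102 CPM. All 6 libraries labelled with the pfd-6 allele were below all 6 without it. The allele and the pfd-6 RNA interference named in the growth protocol cannot be told apart in this. Replicate 3 of daf-2 and replicate 3 of pfd-6 stood apart from the other libraries of their genotypes: the 78 genes of ribosomal proteins made up 1.41% of the daf-2 library and 0.609% of the pfd-6 library, against 9.33% to 15.9% in the other 10 libraries. Summed intestinal markers (8 genes, none at 0 in every library) reached 21300 CPM in daf-2 replicate 3 and 12100 CPM in pfd-6 replicate 3, the 2 lowest values of the 12 libraries. The yolk protein genes vit-2 and vit-6 made up 92.7% to 98.5% of that sum in each library. Together the other 6 markers reached 312 CPM in daf-2 replicate 3 and 259 CPM in pfd-6 replicate 3, against 1600 to 3900 CPM elsewhere. Of these 6, elt-2 (12.1 and 18.4 CPM in those 2 libraries) and ges-1 (45.7 and 28.2 CPM) were not both low there. The ges-1 level was highest in replicate 3 of all 4 genotypes. Medians over the 10 genes in each comparison are therefore also given without these 2 libraries, as are the fold changes of several genes for which one of them was extreme. Since whole animals were used, fewer cells of a type and less RNA per cell cannot be told apart.

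Per kilobase of annotated exon, the 10 genes spanned a wide range of levels. Averaged over the 12 libraries, crt-1 had 384 CPM per kb and pdi-3 had 370 CPM per kb, followed by pdi-1 with 192, enpl-1 with 191, xbp-1 with 171, pdi-2 with 144, cnx-1 with 122, pdi-6 with 56.3, ire-1 with 47.1 and dnj-7 with 15.4 CPM per kb. crt-1 lay at percentile 98.2 and dnj-7 at percentile 60.3 of the tested genes ranked by this measure. In N2, crt-1 (523 ± 226 CPM per kb) and pdi-3 (434 ± 67.2) differed by less than the spread of crt-1 between libraries (SD, n = 3). Going down the order in N2 through pdi-1 (290 ± 99.8 CPM per kb), enpl-1 (235 ± 69.2), pdi-2 (210 ± 149) and xbp-1 (189 ± 43.3), each gene differed from the next by less than the larger SD of the pair. The lowest 2 genes of the order, ire-1 at 46.6 ± 9.42 and dnj-7 at 16.8 ± 1.47 CPM per kb in N2, were separated by more than either SD. All 10 genes together took 0.226% to 0.377% of the counts of a library.

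The lectin chaperones differed in how variable they were. crt-1, calreticulin, a calcium-binding chaperone of the ER lumen (WBGene00000802; chromosome V, 6098992 to 6100542, minus strand, 1401 exonic bases), had 585, 632 and 725 CPM in the double mutant, 383, 656 and 209 CPM in daf-2, 336, 682 and 53.1 CPM in pfd-6, and 501, 603 and 1090 CPM in N2. Its values spanned 20.6-fold over the 12 libraries, with pfd-6 replicate 3 lowest and N2 replicate 3 highest, and the genotypes overlapped throughout. The double mutant libraries lay within 1.24-fold of each other, and those of pfd-6 within 12.8-fold. Fitted log2 fold changes of crt-1 were -0.18 for the double mutant against N2 (95% confidence interval -1.71 to 1.35), -0.82 for daf-2 against N2 (-2.35 to 0.72) and -1.04 for pfd-6 against N2 (-2.58 to 0.51), the last of which was -0.50 without the 2 libraries that stood apart. cnx-1, calnexin, the membrane-bound counterpart (WBGene00000567; chromosome III, 9814364 to 9817137, minus strand, 2141 bases), varied least of the 10 genes (1.61-fold over the 12 libraries), at 230, 208 and 230 CPM in the double mutant, 222, 227 and 335 CPM in daf-2, 300, 256 and 284 CPM in pfd-6, and 277, 263 and 293 CPM in N2. Every double mutant library was below every pfd-6 and every N2 library, while daf-2 replicate 3 was the highest of all 12. The fitted log2 fold change of cnx-1 was -0.32 for the double mutant against N2 (-0.91 to 0.27, adjusted p = 0.656) and -0.33 for the double mutant against pfd-6 (-0.92 to 0.26, adjusted p = 0.516), both from edgeR's quasi-likelihood test with Benjamini-Hochberg adjustment over all tested genes, as are all adjusted p-values below.

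enpl-1 codes for endoplasmin, the HSP90 chaperone of the ER (WBGene00011480; chromosome IV, 11119298 to 11123155, plus strand, 2653 bases). It had 445, 442 and 513 CPM in the double mutant, 344, 499 and 797 CPM in daf-2, 317, 509 and 338 CPM in pfd-6, and 477, 564 and 829 CPM in N2. Replicate 3 was high in N2 and in daf-2 but not in pfd-6, and the groups overlapped in all comparisons. The fitted difference between pfd-6 and N2 was -0.68 on the log2 scale (-1.55 to 0.18, adjusted p = 0.614). dnj-7 codes for a J-domain protein related to mammalian DNAJC3, which in mammals is an ER co-chaperone (WBGene00001025; chromosome X, 7194564 to 7198291, plus strand, 1965 bases). Its level was 27.1, 31.2 and 25 CPM in the double mutant, 22.9, 32.5 and 35.5 CPM in daf-2, 20.9, 31 and 36.9 CPM in pfd-6, and 29.8, 34.3 and 35.2 CPM in N2. All values lay within 1.76-fold, no pair of genotypes was separated, and the fitted difference farthest from 0 in the 5 pairwise comparisons was -0.25 on the log2 scale (-0.85 to 0.35), for the double mutant against N2.

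**Figure D1:**
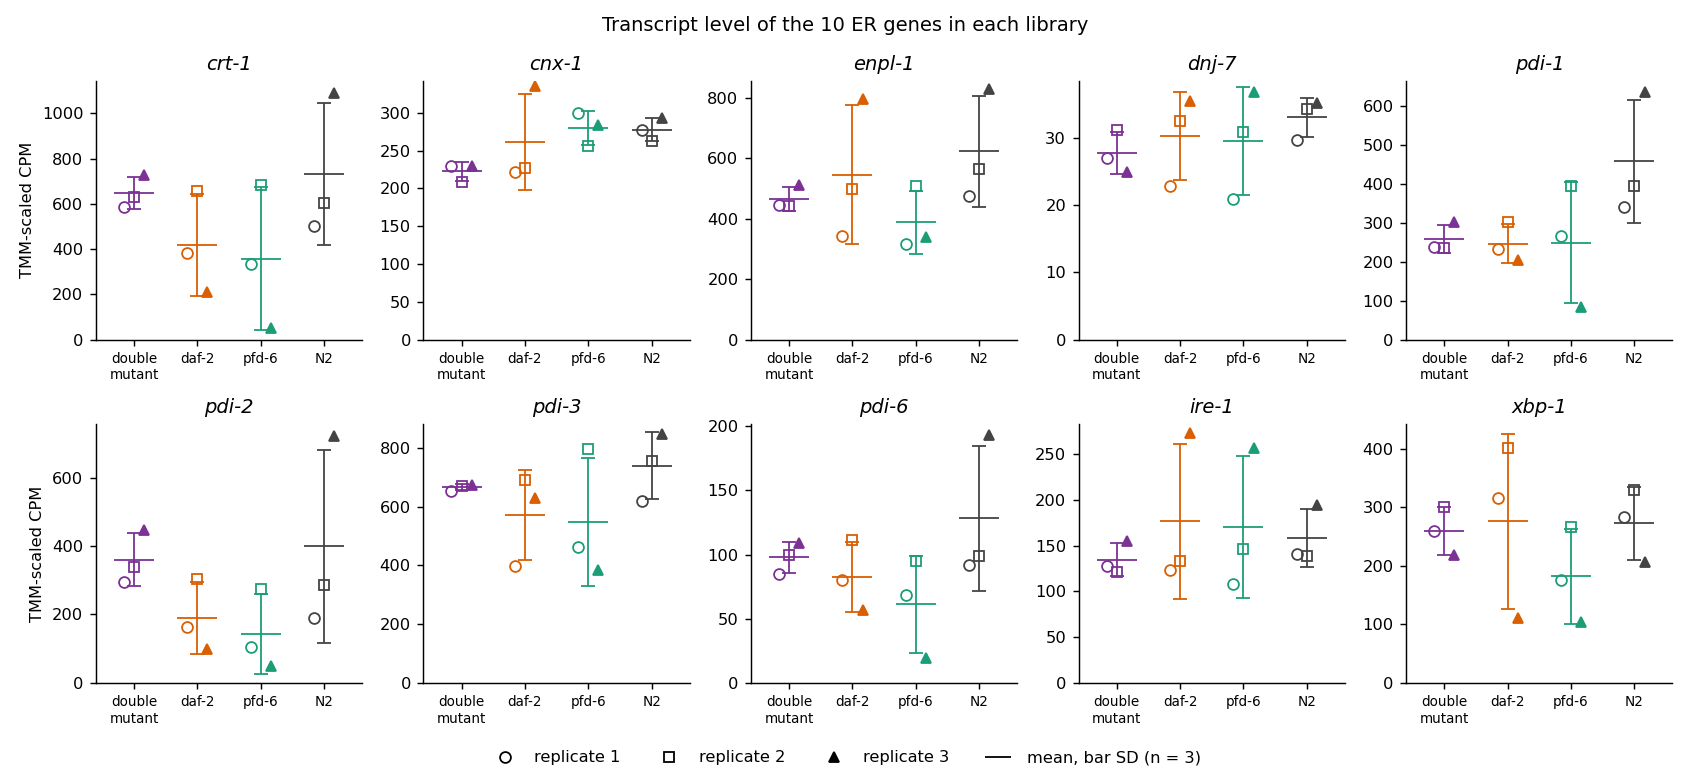
TMM-scaled CPM of the 10 genes in each of the 12 libraries, by genotype; symbols mark the replicate number, the long line is the mean and the bar 1 SD (n = 3). pfd-6 replicate 3 is the lowest library for crt-1 (53.1 CPM), pdi-1, pdi-2, pdi-3, pdi-6 and xbp-1, while the double mutant libraries of pdi-3 lie between 655 and 674 CPM.

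Protein disulfide isomerases form and rearrange disulfide bonds in the ER. pdi-1 (WBGene00003962; chromosome III, 3699739 to 3701461, minus strand, 1577 bases) had 239, 235 and 301 CPM in the double mutant, 234, 301 and 204 CPM in daf-2, 267, 395 and 84.5 CPM in pfd-6, and 341, 396 and 637 CPM in N2. All 3 N2 libraries were above all double mutant and all daf-2 libraries, and pfd-6 replicate 2 came within 1 CPM of N2 replicate 2. The fitted log2 fold changes of pdi-1 were close to each other in the 3 comparisons with N2: -0.83 for the double mutant (-1.86 to 0.21, adjusted p = 0.468), -0.90 for daf-2 (-1.93 to 0.14, adjusted p = 0.586) and -0.88 for pfd-6 (-1.92 to 0.16, adjusted p = 0.614). These comparisons share the 3 N2 libraries. Without the 2 libraries that stood apart, pdi-1 gave -0.78 in the double mutant (adjusted p = 0.108), -0.76 in daf-2 (adjusted p = 0.326) and -0.44 in pfd-6 (adjusted p = 0.742).

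pdi-2, which in C. elegans also serves as the subunit that collagen prolyl 4-hydroxylases need to form the cuticle (WBGene00003963; chromosome X, 4524155 to 4526536, plus strand, 1898 bases), had 295, 339 and 448 CPM in the double mutant, 164, 305 and 100 CPM in daf-2, 105, 274 and 48 CPM in pfd-6, and 190, 286 and 722 CPM in N2. The double mutant libraries were all above the pfd-6 libraries, and N2 replicate 3 was far above the rest of N2. The double mutant against pfd-6 gave a log2 fold change of 1.34 (SE 0.65, -0.08 to 2.76, adjusted p = 0.272), and pfd-6 against N2 gave -1.49 (SE 0.66, -2.91 to -0.06, unadjusted p = 0.0423, adjusted p = 0.614). Without the 2 libraries that stood apart the pdi-2 difference between pfd-6 and N2 was -1.06 (adjusted p = 0.742). Relative to N2 the double mutant stood at -0.15 (-1.54 to 1.25). Without N2 replicate 3 pdi-2 gave 0.47 in the double mutant and -0.72 in pfd-6.

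pdi-3, similar to mammalian ERp57 (WBGene00003964; chromosome I, 7015908 to 7020797, minus strand, 1706 bases), had 655, 669 and 674 CPM in the double mutant, 399, 690 and 630 CPM in daf-2, 463, 795 and 384 CPM in pfd-6, and 619, 754 and 847 CPM in N2. The spread between the double mutant libraries was 1.51% of their mean, against 39.8% in pfd-6. pdi-6 (WBGene00015168; chromosome X, 7066342 to 7068563, minus strand, 1643 bases) had 85, 99.7 and 109 CPM in the double mutant, 80.4, 111 and 56.5 CPM in daf-2, 68.8, 94.8 and 19.6 CPM in pfd-6, and 92.2, 99.2 and 193 CPM in N2. For both genes the genotypes overlapped in every comparison. The pdi-6 difference between pfd-6 and N2 was -1.07 on the log2 scale (-2.14 to 0.00, unadjusted p = 0.0505, adjusted p = 0.614), and -0.61 without the 2 libraries that stood apart.

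ire-1, the sensor of unfolded proteins (WBGene00002147; chromosome II, 8112243 to 8124910, minus strand, 3401 bases), had 128, 121 and 155 CPM in the double mutant, 123, 133 and 274 CPM in daf-2, 108, 146 and 257 CPM in pfd-6, and 141, 139 and 195 CPM in N2. Replicate 3 was the highest library in each genotype, most of all in daf-2 and pfd-6. The fitted log2 fold changes of ire-1 were -0.23 for the double mutant against N2 (-1.07 to 0.61), 0.16 for daf-2 against N2 (-0.68 to 1.00) and 0.11 for pfd-6 against N2 (-0.73 to 0.94); without the 2 libraries that stood apart they were -0.19, -0.30 and -0.29. xbp-1, the transcription factor gene whose mRNA IRE-1 splices (WBGene00006959; chromosome III, 4193809 to 4195358, plus strand, 1446 bases), had 260, 300 and 218 CPM in the double mutant, 316, 402 and 111 CPM in daf-2, 175, 267 and 104 CPM in pfd-6, and 283, 330 and 206 CPM in N2. Replicate 3 was its lowest library in each genotype. In daf-2 against N2 the xbp-1 log2 fold change was 0.01 (-0.99 to 1.02), and 0.40 without the 2 libraries; in pfd-6 against N2 it was -0.59 (-1.60 to 0.42), and -0.28 without them. None of these differences passed the test.

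Short stretches of 5 of the genes are shared with a neighbour, and where the neighbour lies on the opposite strand reads from the shared bases cannot be told apart unless strand was used, which the sources used here do not state. The shared exonic bases number 92 of 1401 in crt-1 (with smut-1), 49 of 2141 in cnx-1 (with ZK632.14), 23 of 2653 in enpl-1 (with spo-11), 4 of 3401 in ire-1 (with unc-105) and, on the same strand, 18 of 1898 in pdi-2 (with C07A12.19, listed at 0 in all libraries).

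Across the 6 comparisons, 0 of the 10 genes passed an adjusted p of 0.05 in edgeR, and 0 passed in DESeq2. The shares of all tested genes that passed in edgeR were 3.19% for the double mutant against N2, 3.11% for the double mutant against daf-2, 3.29% for the double mutant against pfd-6, 0.934% for daf-2 against N2, 0.0994% for pfd-6 against N2 and 0.139% for the interaction, which is the daf-2 effect in pfd-6 animals minus that in animals with wild-type pfd-6. At these shares fewer than 1 call would be found among any 10 genes on average, so a count of 0 does not set these genes apart. At an unadjusted p under 0.05, edgeR gave 1 of the 10 genes in pfd-6 against N2, where 6.93% of all tested genes were under it, and 1 in the interaction, where 17.4% were. Both were pdi-2, and 1 of 10 is near the share in the one comparison and below it in the other. In the other 4 comparisons, where 10.1% to 20.4% of all tested genes were under it, the count was 0 of 10. DESeq2 gave 2 genes under it in pfd-6 against N2, where 1325 of the 15090 tested genes were under it. It gave 1 in the double mutant against pfd-6 (3338 of all tested genes) and 1 in the interaction (2898). The count was 0 in the double mutant against N2 (2446), the double mutant against daf-2 (2379) and daf-2 against N2 (1677). Genes past the adjusted threshold in DESeq2 numbered 1178, 916, 1290, 401, 31 and 446 in the order of the edgeR shares above. A p-value that misses the threshold does not show that levels were equal: the confidence intervals of crt-1 and pdi-2 still span changes of more than 2 log2 units in several comparisons.

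In the double mutant against N2 all 10 fitted log2 fold changes were below 0, with a median of -0.24 against -0.07 over all tested genes. Above 0 were 45.7% of all tested genes. The range of the 10 genes ran from -0.83 (pdi-1) to -0.08 (xbp-1). Libraries of the 2 genotypes did not overlap for 2 genes, cnx-1 and pdi-1, both lower in the double mutant, a pattern shown by 17.4% of all tested genes. With library totals in place of TMM, a scaling that moved the median of all genes to 0.15, the median of the 10 was -0.02 and 4 of them were above 0, so relative to all genes the 10 lay as far below as with TMM. With replicates 1 and 2 alone 4 were above 0, and the median was -0.06 against 0.05 over all genes. With those 2 libraries of daf-2 and pfd-6 left out, all 10 were below 0, with a median of -0.19.

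In daf-2 against N2 the median of the 10 genes was -0.28, against 0.03 over all tested genes, and 2 genes (ire-1 and xbp-1) were above 0. pdi-1 alone had no overlap between the genotypes, lower in daf-2, as did 7.66% of all tested genes. The median was -0.42 without the 2 libraries that stood apart, -0.16 with replicates 1 and 2 alone and 0.21 with library totals, against 0.47 over all genes under that scaling. In pfd-6 against N2 the median was -0.64, against 0.04 over all genes, with 2 genes (cnx-1 and ire-1) above 0 and 0 genes separated between the genotypes, where 2.75% of all tested genes were separated and lower and 4.71% separated and higher. That median was -0.38 without the 2 libraries, -0.20 with replicates 1 and 2 alone and -0.24 with library totals, against 0.50 over all genes under that scaling.

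The double mutant was also set against each single mutant. Against daf-2 the median of the 10 genes was -0.01, against -0.07 over all genes, with 5 genes on either side of 0 and 0 genes separated between the genotypes, where 14.4% of all tested genes were separated and higher and 14.2% separated and lower. Against pfd-6 the median was 0.27, against -0.02 over all genes, with 7 genes above 0. Here pdi-2 was separated and higher in the double mutant, as were 14.6% of all tested genes, and cnx-1 was separated and lower, as were 13.9%. With the 2 libraries left out the median was 0.09 against daf-2 and 0.16 against pfd-6. The comparisons of the double mutant share its 3 libraries.

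The interaction asks whether the 2 mutations combined as the sum of their single effects on the log2 scale. Its median over the 10 genes was 0.58, against -0.12 over all tested genes, with 8 genes above 0. That median was 0.48 without the 2 libraries that stood apart, and 0.03 with library totals, against -0.82 over all genes under that scaling. The value was 2.41 for pdi-2 (SE 0.92, 0.41 to 4.41, unadjusted p = 0.0222, adjusted p = 0.241), 1.67 for crt-1 (SE 1.00, -0.50 to 3.85, adjusted p = 0.381) and 1.31 for pdi-6 (SE 0.69, -0.19 to 2.82, adjusted p = 0.335). cnx-1 and dnj-7 lay close to 0, at -0.25 (-1.08 to 0.59) and 0.03 (-0.82 to 0.88). Without the 2 libraries that stood apart the interaction was 0.86 for crt-1, 0.68 for pdi-6 and 1.72 for pdi-2 (adjusted p = 0.35), and with replicates 1 and 2 alone it was 0.83 for pdi-2 (adjusted p = 0.683).

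**Figure D2:**
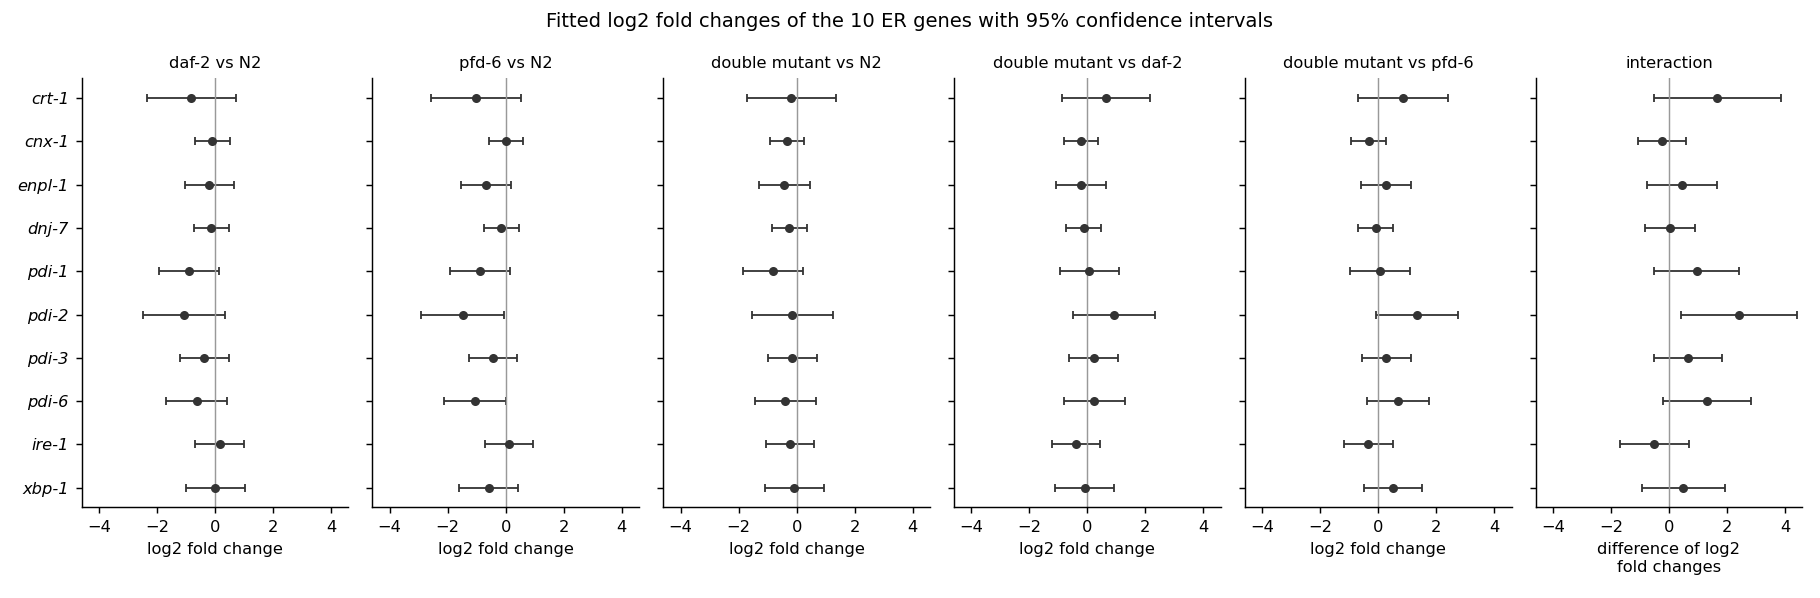
Fitted log2 fold changes of the 10 genes in the 5 pairwise comparisons and the interaction; points are edgeR estimates and bars 95% confidence intervals. The bar excludes 0 for pdi-2 in pfd-6 against N2 (-2.91 to -0.06) and in the interaction (0.41 to 4.41), both before adjustment for the number of genes.

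Replicate 3 was the highest or lowest library of its genotype for 10 of the 10 genes in the double mutant (8 highest), 9 in daf-2 (4 highest), 8 in pfd-6 (2 highest) and 10 in N2 (9 highest). In pfd-6, replicate 3 relative to the mean of replicates 1 and 2 was -3.26 on the log2 scale for crt-1, -2.06 for pdi-6, -1.98 for pdi-2 and -1.97 for pdi-1, but 1.02 for ire-1 and 0.51 for dnj-7. In daf-2 the values were -1.31 for crt-1, -0.76 for pdi-6, -1.23 for pdi-2, -0.39 for pdi-1, 1.10 for ire-1 and 0.92 for enpl-1. In the double mutant and in N2 the same contrast was above 0 for crt-1 (0.25 and 0.99), pdi-1 (0.35 and 0.79), pdi-2 (0.50 and 1.60) and pdi-6 (0.24 and 1.01). Only xbp-1, of the 10 genes, was below 0 in replicate 3 of every genotype, at -0.36 in the double mutant, -1.70 for daf-2, -1.09 for pfd-6 and -0.57 for N2.

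The departure of replicate 3 followed exon length among the 10 genes in the single mutants. Spearman's rho between exon length and the log2 ratio was 0.04 in the double mutant, 0.90 for daf-2, 0.81 for pfd-6 and -0.18 for N2 (10 genes each, a description across genes, which are not independent replicates). Over 15074 tested genes with a length, rho was 0.26 in the double mutant, 0.40 for daf-2, 0.29 for pfd-6 and 0.30 for N2, so longer transcripts were relatively higher in replicate 3 of every genotype. Among all genes, those of up to 897 bases had a median log2 ratio of -0.13 in the double mutant, -0.48 for daf-2, -0.51 for pfd-6 and -0.28 for N2, and those of 2025 bases or more had 0.14 in the double mutant, 0.30 for daf-2, 0.29 for pfd-6 and 0.27 for N2. With a length term for each library added to the fit, the median of the 10 genes was 0.05 in the double mutant against pfd-6, against -0.24 over all genes, and -0.40 in the double mutant against N2, against -0.23 over all genes. The part of transcript length in the differences between genotypes was not tested further.

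**Figure D3:**
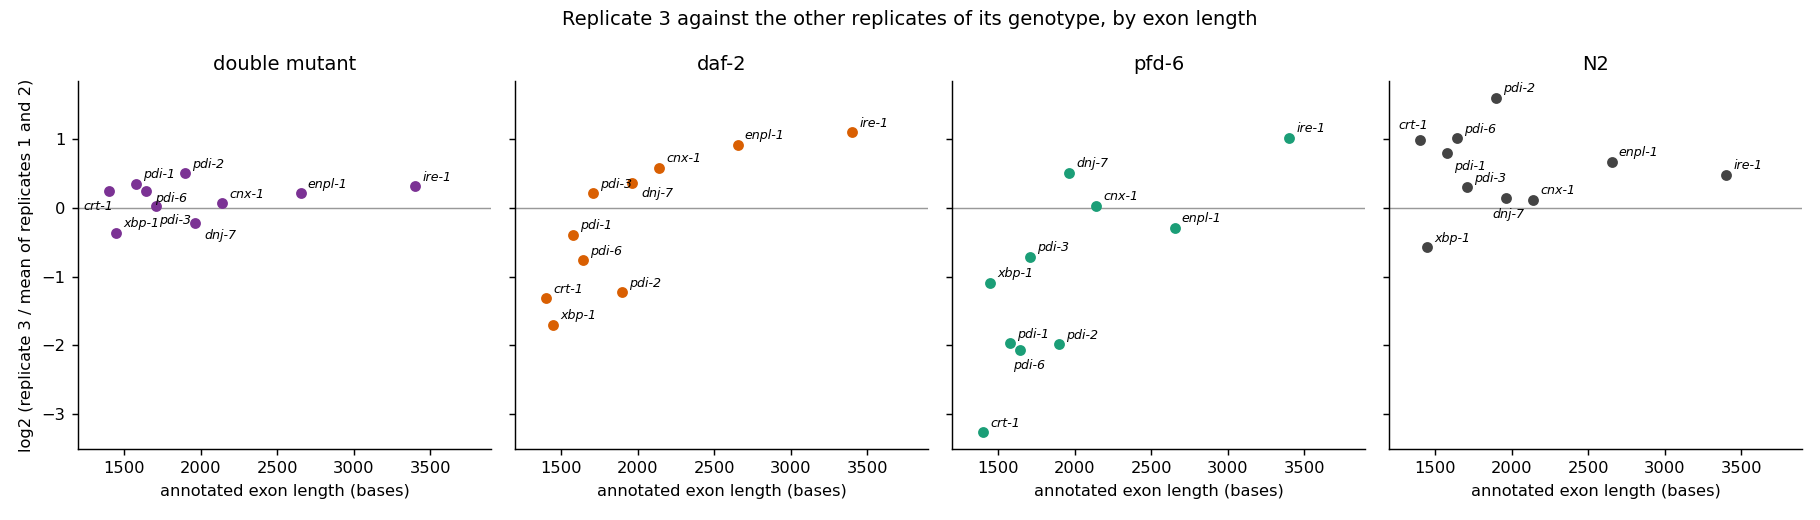
Log2 ratio of replicate 3 to the mean of replicates 1 and 2 (vertical axis) against annotated exon length in bases (horizontal axis) for the 10 genes, by genotype; each point is 1 gene. In daf-2 and pfd-6 the shortest transcript, crt-1, lies below 0 at -1.31 and -3.26, and the longest, ire-1, above 0 at 1.10 and 1.02. The order is not strict: pdi-3 lies at 0.21 in daf-2, above the longer pdi-2 (-1.23), and enpl-1 at -0.29 in pfd-6. The double mutant points stay between -0.36 and 0.50.

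The following correlations of log2 CPM between the genes are descriptions over libraries that share genotypes and depth. crt-1, pdi-1, pdi-2 and pdi-6 varied together, with Pearson's r of 0.82 to 0.98 in their 6 pairs over 12 libraries, and 0.57 to 0.97 over the 10 libraries left without the 2 that stood apart. pdi-3 was not far from them, with r of 0.75 to 0.80 over 12 libraries and 0.68 to 0.89 over 10, and enpl-1 had 0.42 to 0.56 over 12 and 0.86 to 0.94 over 10, so no boundary around the 4 genes is drawn. ire-1 ran against these 4 genes over 12 libraries, with r of -0.56 to -0.35, and with them over the 10 libraries, with r of 0.83 to 0.90. The sign of that relation in r therefore rested on 2 libraries. For crt-1 and ire-1, r was -0.56 and Spearman's rho 0.03 over 12 libraries, and 0.87 and 0.77 over 10. xbp-1 and ire-1 had r of -0.78 and rho of -0.52 over 12 libraries, and -0.15 and -0.18 over 10.

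**Figure D4:**
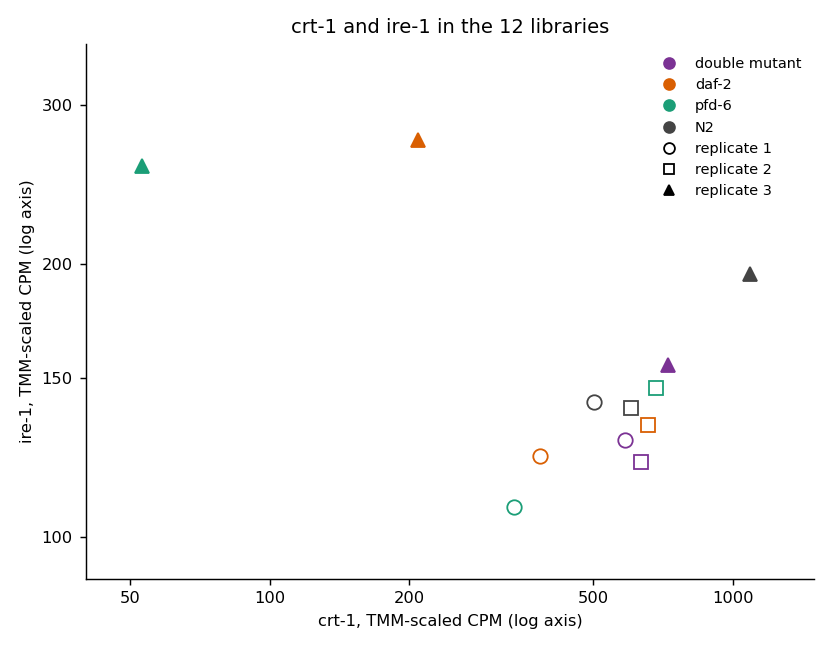
crt-1 (horizontal axis) against ire-1 (vertical axis) in the 12 libraries, both in TMM-scaled CPM on log axes; colour gives the genotype and symbol the replicate. daf-2 replicate 3 (209 and 274 CPM) and pfd-6 replicate 3 (53.1 and 257 CPM) lie at the upper left, away from the other 10 libraries, in which the levels of both genes are higher or lower together.

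For each gene the tested genes with the most similar pattern over the 12 libraries were listed by Pearson's r of log2 CPM. For crt-1 they were acaa-2 (0.995) and aars-2 (0.994), and for pdi-6 acaa-2 again (0.989). For pdi-1 they were ucr-2.3 (0.993) and rpn-9 (0.979), for pdi-2 BE0003N10.1 and xrn-1 (both 0.986), and for pdi-3 Y92H12BR.3 (0.975). For cnx-1 they were cpsf-2 (0.960) and ZK973.1 (0.935), for enpl-1 pgm-1 (0.971) and knl-1 (0.964), and for dnj-7 alr-1 (0.944) and unc-18 (0.943). For ire-1 they were aka-1 (0.982) and cid-1 (0.981), and for xbp-1 arrd-7 (0.981) and fat-5 (0.966). No gene of the 10 was among the most similar pair of another.

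hsp-3 and hsp-4 code for the 2 BiP chaperones of the C. elegans ER, and hsp-4 is the usual reporter of the unfolded protein response. hsp-3 had 328, 366 and 401 CPM in the double mutant, 195, 360 and 261 CPM in daf-2, 127, 326 and 158 CPM in pfd-6, and 250, 374 and 688 CPM in N2. hsp-4 had 254, 241 and 305 CPM in the double mutant, 168, 247 and 232 CPM in daf-2, 162, 293 and 78 CPM in pfd-6, and 212, 248 and 557 CPM in N2. Both were highest in N2 replicate 3. The double mutant was separated from pfd-6 for hsp-3 (lowest value 328 against highest value 326 CPM) but not for hsp-4. Of all tested genes, 14.6% were separated and higher in the double mutant against pfd-6. Neither hsp-3 nor hsp-4 passed the test in any comparison. For the double mutant against N2 the log2 fold change was -0.26 for hsp-3 (-1.25 to 0.72) and -0.35 for hsp-4 (-1.38 to 0.69), and the smallest adjusted p of hsp-3 was 0.267, in the interaction (1.53, 0.13 to 2.93). As close paralogs, the 2 genes may divide reads between them in the counting, and their separate values are uncertain to that extent.

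The wider ER gene lists, 53 genes of which 52 were tested, held 1 call, in the double mutant against daf-2, where 3.11% of all tested genes passed. That is no more than this share would give among 52 genes. C47E12.3, written on the ER-associated degradation list, had 29.6, 26 and 28.4 CPM in the double mutant, against 54.7, 52.1 and 88.5 CPM in daf-2; in pfd-6 it had 39.2, 42.8 and 54.3 CPM and in N2 40.9, 39.4 and 63.1 CPM. All double mutant libraries were below all others. Separated and lower in the double mutant were 17.4% of all tested genes against N2, 14.2% against daf-2 and 13.9% against pfd-6. C47E12.3 fell by 1.22 on the log2 scale in the double mutant against daf-2 (SE 0.29, adjusted p = 0.0455). This call was lost without the 2 libraries that stood apart (-0.89, adjusted p = 0.0884), with RLE size factors (adjusted p = 0.0531), with no filter on low counts (0.0532), with library totals alone (0.0909) and with replicates 1 and 2 alone (0.0933). It was also lost in 9 of the 12 fits that left out 1 library, in which its adjusted p ran from 0.0311 to 0.2, the highest without daf-2 replicate 3; when the replicate number was added as a block it was kept (adjusted p = 0.0147), as it was in DESeq2 (adjusted p = 0.00834).

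The other lists are given by counts. Among the 8 further chaperones and folding sensors, 7 of 8 fold changes were below 0 in the double mutant against N2, with a median of -0.33. Among the 7 further genes of stress sensing and signalling, which include pek-1 and atf-6, the sensors of the other branches, 6 of 7 were below 0 in that comparison, with a median of -0.27. Among the 12 degradation genes 11 were below 0, with a median of -0.45 and 8 genes separated and lower. All 10 genes of translocation into the ER were below 0, with a median of -0.53, and all 5 genes of N-linked glycosylation were below 0 and separated, with a median of -0.46. The 4 tested collagen hydroxylases had a median of 0.01, with 2 above and 2 below 0. In all, 46 of the 52 genes were below 0 in that comparison, where 45.7% of all tested genes were above 0 and their median was -0.07. Separated and lower were 25 of the 52, a pattern shown by 17.4% of all tested genes. The test was passed by 0 of the 52, against 3.19% of all tested genes. An unadjusted p under 0.05 was found for 2 of the 52, against 15.3% of all tested genes. With library totals 40 of the 52 were below 0, with a median of -0.17 against 0.15 over all genes, and with replicates 1 and 2 alone 37 were, with a median of -0.18 against 0.05 over all genes. In the other comparisons the medians of the 52 genes lay between -0.18 and -0.13, with 0 calls but for C47E12.3. The translocation genes lay outside that range, with medians of -0.90 in daf-2 against N2, -0.89 in pfd-6 against N2 and 1.29 in the interaction. Medians of the other lists of the 52 genes in those comparisons lay between -0.35 and 0.39. Of the 10 translocation genes, 2, 3 and 3 had an unadjusted edgeR p under 0.05, against 10.1%, 6.93% and 17.4% of all tested genes. The translocation medians come from all 12 libraries, including the 2 that stood apart. Between libraries of 1 genotype, translocation genes ranged up to 6.15-fold in daf-2 and 25.2-fold in pfd-6 (both trap-3). In N2 they ranged up to 3.62-fold (sec-61.A). With library totals the median of the 52 genes was 0.33 in daf-2 against N2 and 0.28 in pfd-6 against N2, still below the medians of all genes under that scaling, 0.47 and 0.50.

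Of these lists, further genes are named by the size of their p where none passed. C14B9.2, written on the disulfide list, had 69.3, 68.4 and 73.4 CPM in the double mutant, 66.5, 55.6 and 80.9 CPM in daf-2, 50.9, 41.5 and 69.9 CPM in pfd-6, and 37.8, 38.4 and 33 CPM in N2. All mutant libraries were above all N2 libraries. In pfd-6 against N2, 4.71% of all tested genes were separated and higher. That share was not counted for the double mutant or daf-2 against N2. C14B9.2 was named for its small p, so its separation is not a result apart from that choice. Its log2 fold change was 0.95 for the double mutant against N2 (SE 0.26, adjusted p = 0.065) and 0.89 for daf-2 against N2 (SE 0.26, adjusted p = 0.166). In the double mutant against N2 the adjusted p of C14B9.2 was 0.0317 in the fit blocked on replicate number, 0.0139 in DESeq2 and 0.0159 without the 2 libraries that stood apart. trap-1 gave -1.43 in pfd-6 against N2 (adjusted p = 0.614), and in the double mutant against pfd-6 der-2 gave -1.04 (adjusted p = 0.111) and fic-1, which codes for an ER enzyme that attaches AMP to BiP, gave -0.86 (adjusted p = 0.172).

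Marker lists of other tissues were measured beside these genes. Sperm markers passed the test, all higher in the double mutant, for 2 of 8 genes against N2, 7 against daf-2 and 4 against pfd-6. Hypodermal and cuticle markers passed for 2 of 8, 1 and 4 in the same comparisons. Of all tested genes, 3.19%, 3.11% and 3.29% passed in them. Without daf-2 replicate 1, and again without daf-2 replicate 3, 0 of all tested genes passed against daf-2, so these calls were lost there. On the intestinal, germline, muscle and neuron lists 0 genes passed in any comparison, where at most 3.29% of all tested genes passed. Summed hypodermal and cuticle markers (8 genes) lay at 2590 to 2770 CPM in the double mutant, 95.1 to 1340 CPM in daf-2, 52 to 1340 CPM in pfd-6 and 1110 to 1620 CPM in N2. Most of this sum came from col-19, at 2520 to 2620 CPM in the double mutant and 86 to 1320 CPM in daf-2. In pfd-6 col-19 had 48.7 to 1330 CPM, and in N2 1100 to 1580 CPM. It passed in no comparison (0.95 for the double mutant against N2, edgeR adjusted p = 0.737). Intestinal markers (8 genes) ran from 84500 to 85200 CPM in the double mutant, 21300 to 90400 CPM in daf-2, 12100 to 99900 CPM in pfd-6 and 64500 to 120000 CPM in N2. Summed sperm markers (8 genes) lay at 65.1 to 174 CPM in the double mutant, 2.18 to 5.58 CPM in daf-2, 3.63 to 21.1 CPM in pfd-6 and 5.44 to 25.8 CPM in N2. Oocyte and germline markers (8 genes) ran from 4110 to 5640 CPM in the double mutant, 2870 to 4780 CPM in daf-2, 2310 to 6940 CPM in pfd-6 and 3940 to 9810 CPM in N2. Muscle markers (6 genes) ran from 2770 to 8260 CPM in the double mutant, 921 to 3300 CPM in daf-2, 1050 to 3570 CPM in pfd-6 and 1460 to 4280 CPM in N2. Neuron markers (6 genes) lay at 209 to 285 CPM in the double mutant, 187 to 264 CPM in daf-2, 149 to 226 CPM in pfd-6 and 202 to 272 CPM in N2. No marker was at 0 in every library, and the part of tissue content in the values of the ER genes was not tested.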

How the data were processed

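RNA from whole day 1 adults of 4 genotypes, 3 libraries each, was sequenced as paired-end mRNA libraries, per the labels' protocols. The deposited files give expected counts per gene for each library, not scaled to depth, per the file headers; the authors' tools, per the submitters' processing notes, were R 3.1.3, limma 3.24.15, RSEM 1.3.1, StringTie 1.3.3 and HISAT2 2.0.5 with the builds ce11 and WBcel235, with no step assigned to a tool. The share of values that were not whole numbers ran from 1.678% to 2.991% per library. Positions, exon lengths and overlaps came from the WBcel235 annotation, Ensembl release 115, in which 46817 of 46904 gene IDs were found.

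Expected counts were rounded; filterByExpr kept 15090 genes, and TMM factors ran from 0.747 to 1.6. edgeR 4.0.16 quasi-likelihood models (R 4.3.3) with genotype as covariate were fitted to all 12 libraries and all kept genes, with Benjamini-Hochberg adjustment over all of them and a threshold of 0.05. The procedure was also run on counts simulated independently for each library, with known fold changes added. The simulated counts held no departure of replicate 3 and no length effect, so those runs do not bear on either. Intervals are 95% confidence intervals of the fitted differences. Likeness was Pearson's r of log2(CPM + 0.5). The genes and lists were chosen with earlier results of these data known. Named were the 10 genes, hsp-3, hsp-4, pfd-6, any gene of the other ER lists past the threshold (otherwise the 2 with the smallest p per comparison) and the 2 most similar genes of each; trap-1, trap-2, der-2, fic-1, C14B9.2 and C47E12.3 entered by that rule.

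The labels' protocols speak of biological repeats, 1 set of which was sequenced later, without giving its number, so p-values measure the spread between these libraries. The closest libraries of a genotype, replicates 1 and 2 of the double mutant, differed by a chi-square of 21.65 per degree of freedom, so none were merged. Pairing by replicate number was checked from the data by correlating deviations of same-numbered libraries from their genotype means. They were 0.432, 0.434 and 0.546 between double mutant and N2, 0.544, 0.311 and 0.339 between daf-2 and N2 and 0.364, 0.207 and 0.16 between double mutant and daf-2, each above 0.1, but 0.433, 0.0033 and -0.0158 between pfd-6 and N2 and 0.334, -0.0101 and 0.011 between double mutant and pfd-6.

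Alternatives were DESeq2 1.42.0, RLE size factors, no filter on low counts, the replicate number as a block, each library left out, replicates 1 and 2 alone and the fit with pfd-6 replicate 3 and daf-2 replicate 3 both left out. Library totals alone and a transcript length term (for each library a natural spline, 5 degrees of freedom), alone and with the block, were added after seeing the data. Promoter sequences were not used here, so a motif search that had been planned was not run.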

Additional observations from a re-analysis of the deposited data

Results flagged for a closer look

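trap-2, which codes for a subunit of the translocon-associated protein complex at the ER membrane, had opposite directions in the presence and absence of the other mutation. It had 92.7, 93.3 and 128 CPM in the double mutant, 64.6, 81.3 and 57.9 CPM in daf-2, 64.5, 79.4 and 46 CPM in pfd-6, and 83, 104 and 193 CPM in N2. Every daf-2 library was below every N2 library (log2 fold change -0.90), while every double mutant library was above every pfd-6 library (0.72). Likewise, every pfd-6 library was below every N2 library (-1.0), while every double mutant library was above every daf-2 library (0.62). These comparisons share libraries, and the share of all tested genes with this pattern was not counted. The highest daf-2 value, 81.3 CPM, was close to the lowest N2 value, 83 CPM. Replicate 3 was the highest library of N2 (193 CPM) and the lowest of daf-2 (57.9 CPM) and of pfd-6 (46 CPM). The sizes of the trap-2 fold changes therefore rest in part on replicate 3. The test of the difference, the edgeR interaction, gave 1.62 (SE 0.48, unadjusted p = 0.00552, adjusted p = 0.175) and did not pass the threshold. The translocation list, which includes trap-2, leaned the same way, with medians of -0.90 in daf-2 and -0.89 in pfd-6 against N2. Its double mutant medians were 0.34 against daf-2 and 0.33 against pfd-6. None of the 10 genes showed such a pattern in all libraries. Fitted fold changes of crt-1, pdi-1, pdi-2, pdi-3 and pdi-6 had the signs of those of trap-2 in these comparisons, and none passed the threshold. For pdi-1 the double mutant values were near 0, at 0.07 against daf-2 and 0.05 against pfd-6 (SE 0.47 each). Those of pdi-3, 0.22 and 0.28, were smaller than their SE of 0.39.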

How the results depend on the processing

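In each of the 6 comparisons, 0 of the 10 genes passed the threshold under any of the 21 alternatives, 12 of which left out 1 library each; the lowest adjusted p was 0.0667, for pdi-2 in the interaction without pfd-6 replicate 2. The signs were less stable: taken relative to the median of all genes in the same fit, 27 of the 60 fitted fold changes changed sign under at least 1 alternative, 15 with replicates 1 and 2 alone, 13 with both pfd-6 replicate 3 and daf-2 replicate 3 left out and 2 with library totals alone. With the replicate number as a block 2 changed sign, 0 genes passed, and the pdi-2 interaction was 2.61 (adjusted p = 0.138). The numbers of all tested genes past the threshold, against which the count of 0 is read, moved far more. Over the single left-out libraries and then over the other alternatives, the 482 genes of the double mutant against N2 became 69 to 1002 and 457 to 1382 (998 with the block), the 470 of the double mutant against daf-2 became 0 to 714 and 145 to 1108 (814 with the block), and the 497 of the double mutant against pfd-6 became 123 to 803 and 322 to 2490 (1496 with the block). The 141 of daf-2 against N2 became 41 to 249 and 134 to 401 (253 with the block), the 15 of pfd-6 against N2 became 9 to 16 and 9 to 31 (17 with the block), and the 21 of the interaction became 12 to 23 and 6 to 446 (36 with the block). The lowest count, 0, came without daf-2 replicate 1 and again without daf-2 replicate 3, the lowest counts of the double mutant, daf-2 and pfd-6 against N2 without N2 replicate 1, that of the interaction (12) without N2 replicate 1, N2 replicate 2 or double mutant replicate 1, and the lowest of the double mutant against pfd-6 without double mutant replicate 3. Library totals alone moved the median log2 fold change of all genes to 0.15 in the double mutant against N2, -0.30 against daf-2 and -0.28 against pfd-6, 0.47 in daf-2 against N2, 0.50 in pfd-6 against N2 and -0.82 in the interaction. Under it the split of genes past the threshold was 394 higher and 63 lower in the double mutant against N2 (377 and 105 with TMM) and 210 and 112 against pfd-6 (346 and 151 with TMM). The length term changed that last split to 437 higher and 706 lower. The pfd-6 transcript itself kept its direction in each comparison that passed. In pfd-6 against N2 its edgeR adjusted p of 0.0116 became 0.0834 with those 2 libraries left out (-2.69). It became 0.295 when fitted to replicates 1 and 2 alone (-2.79). Left out singly, N2 replicate 1 gave 0.0848, pfd-6 replicate 2 gave 0.0956 and pfd-6 replicate 3 gave 0.0826. In the double mutant against daf-2 the pfd-6 transcript had an adjusted p of 0.0162. That became 0.0502 to 0.0837 when any daf-2 library, double mutant replicate 1 or double mutant replicate 3 was left out singly. The cause of these changes was not tested.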
